A study of Mus musculus with 26 samples.

Results

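Integrins are pairs of an α and a β chain that hold a lymphocyte to other cells and to matrix, and the genes studied here encode 6 such chains together with 3 genes of tissue residence. The set holds Itgae, Itga4, Itgb7, Itgb1, Itgb2, Itgal, Cd44, Cd69 and Klf2, chosen by gene symbol, and all 9 were found among the 55401 identifiers of the count tables. Bulk RNA was sequenced from group 2 innate lymphoid cells (ILC2s) of mouse lung, which are lymphocytes without an antigen receptor that release type 2 cytokines. Naive ILC2s came from 3 female CC030/GeniUnc mice and 3 female C57BL/6J mice, with each library from a different mouse of 8 to 16 weeks, without challenge or culture, and each strain is wild type. CC030/GeniUnc (CC030) is an inbred line from the Collaborative Cross, a panel bred from several founder strains, and C57BL/6J is the strain of the reference genome. These naive cells were enriched with beads, by depletion of lineage-marked cells and then by CD25, and sorted as Lineage-, CD90+, CD127+, CD25+ and ICOS+. None of the 9 genes encodes a marker named for this gate. The lineage antibodies that the study lists for its ILC2 counts include CD11b, the integrin αM encoded by Itgam. A second experiment used lung ILC2s of 5 naive female CC030 mice of 8 to 16 weeks. These were sorted as live, Lineage-, CD90+, CD127+ and ST2+ cells and split into wells of 3000 cells. The medium held IL-2 at 100 U/ml and TSLP and IL-33 at 10 ng/ml each. Each mouse gave 4 libraries, AR420626 (10 µM) and its DMSO vehicle at day 6 and at day 2, which makes 20 libraries. AR420626 is an agonist of FFAR3, a receptor for short-chain fatty acids.

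ILC2s of the lung are largely resident cells, and few of them pass into the blood. CD69 holds lymphocytes in tissue by pairing with the egress receptor S1PR1 and drawing it off the cell surface, and KLF2 is the transcription factor that switches on S1pr1, so that high Cd69 with low Klf2 is the usual picture of a resident lymphocyte. Integrin αE (Itgae, CD103) pairs with β7 (Itgb7) and binds E-cadherin on epithelium. Integrin α4 (Itga4) pairs with β7 to bind MAdCAM-1 or with β1 (Itgb1) to bind VCAM-1 and fibronectin. Integrin αL (Itgal) pairs with β2 (Itgb2) to form LFA-1, the receptor for ICAM-1 and ICAM-2. CD44 binds hyaluronan and is a mark of antigen-experienced and activated lymphocytes.

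Gene counts summed to 1324595 to 1524751 in naive CC030 libraries, against 13533363 to 15234305 in C57BL/6J libraries. Cultured CC030 libraries held 227445 to 5320028. In C57BL/6J libraries all 10 ILC2 markers, among them Gata3, Id2 and Rora, had at least 10 counts, while the 4 markers of NK cells and ILC1s and the 3 of eosinophils were at 0. C57BL/6J library 3 stood apart in markers of other cells. The summed level of 4 epithelial markers was 10636 CPM (counts scaled to a fixed library total) in library 3, against 60.4 and 31.5 CPM in libraries 1 and 2, a difference that lay in Sftpc alone, the surfactant protein of type II pneumocytes, with 172153 counts in library 3. Epcam was alike at 48.7 CPM in library 3 and 47.5 and 30.7 CPM in libraries 1 and 2, Scgb1a1 was highest in library 1, and Cdh1 had 10 counts in library 3 and 0 in the others. Lyz2, a lysozyme of macrophages and type II cells, had 14729 counts in library 3, against 1 in library 1 and 167 in library 2, while Itgam, S100a8 and S100a9 were at 0 in all 3. Itgam encodes CD11b, which is on the study's lineage list. The T cell markers differed in which library was highest. Cd3d (1270 counts), Trac (786 counts), Cd3e (191 counts) and Cd4 (91 counts) were highest in library 1, Cd3g in library 2 (10585 counts) and Lck in library 3 (1335 counts), while Cd8a was at 0. These 7 genes summed to 785, 839 and 386 CPM in libraries 1, 2 and 3. In bulk samples like these, fewer cells of a type and less RNA per cell cannot be told apart.

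In naive C57BL/6J ILC2s, Cd69 had the highest mean of the 9 genes and Itgae the lowest, although Itgb7 was above Cd69 in library 3. Levels between genes are given as CPM per kb of merged exons, scaled by TMM over the 3 C57BL/6J libraries, and the percentile is the place of the mean among the 21678 genes with a count in at least 1 of them. Cd69 stood at 204, 137 and 77.0 CPM per kb in libraries 1, 2 and 3, a mean of 139 ± 63.3 (SD, n = 3) at the 96.5th percentile. Klf2, its counterpart in egress, stood at 5.30, 0.888 and 14.4 CPM per kb, a mean of 6.86 ± 6.89 (SD, n = 3) at the 75.4th percentile. Cd69 was above Klf2 in every library, by 38.4, 155 and 5.35 times per kb. The distance between them was least in library 3, which had the lowest Cd69 and the highest Klf2. S1pr1, the egress receptor that KLF2 drives, had 447 counts in library 3 and 0 counts in both others, while Ccr7 had 52 counts in library 1 and 0 in libraries 2 and 3. The part of other cells in these values was not tested.

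In GRCm38 (GENCODE vM21) the α chain genes lie at chr11:73090583-73147446 (Itgae), chr2:79255426-79333123 (Itga4) and chr7:127296260-127335138 (Itgal). The β chain genes lie at chr15:102215995-102231944 (Itgb7), chr8:128685654-128733200 (Itgb1) and chr10:77530252-77565708 (Itgb2). Cd44 lies at chr2:102811141-102901665, Cd69 at chr6:129267325-129275436 and Klf2 at chr8:72319033-72321656. Itgb7, Cd44 and Cd69 are on the minus strand and the other 6 on the plus strand. Each level per kb divides the scaled count by the length of all exons of the gene in this annotation. Which annotation the deposited counts used was not stated. Reads in the 1124 exon bases that Itga4 shares with Cerkl on the opposite strand cannot be assigned without strand.

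**Figure D1:**
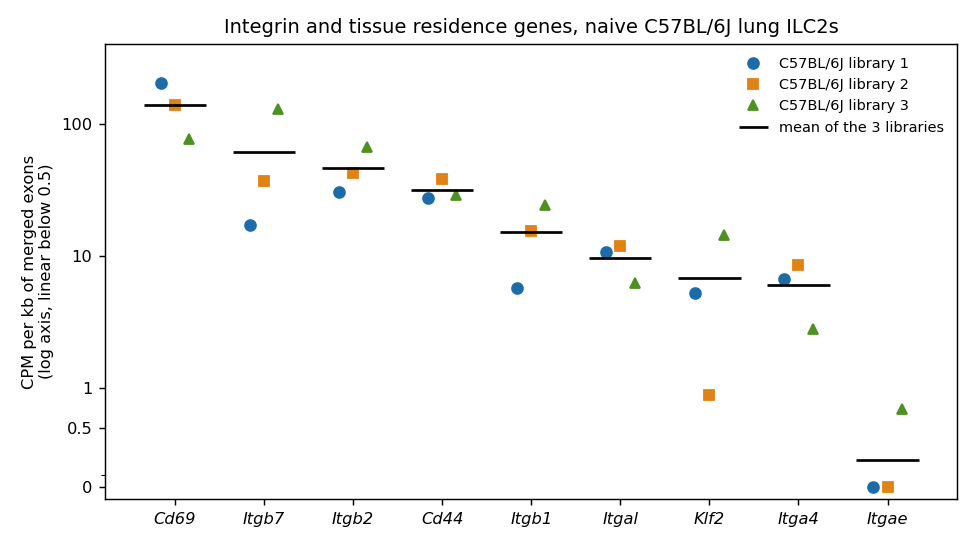
Levels of the 9 genes in naive C57BL/6J lung ILC2s, in CPM per kb of merged exons on an axis that is logarithmic above 0.5 and linear below it. Each point is 1 of the 3 libraries and each bar the mean, from 139 for Cd69 to 0.233 for Itgae, whose libraries 1 and 2 are at 0.

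Among the β chains, Itgb7 and Itgb2 were the higher and Itgb1 the lower. Itgb7 stood at 17.1, 37.0 and 129 CPM per kb, a mean of 61.1 ± 59.8 (SD, n = 3). Itgb2 stood at 30.3, 42.6 and 66.4 CPM per kb, a mean of 46.4 ± 18.4 (SD, n = 3). Itgb1 stood at 5.69, 15.4 and 24.3 CPM per kb, a mean of 15.1 ± 9.28 (SD, n = 3). All 3 chains had their lowest value in library 1 and their highest in library 3. Per kb, Itgb7 was 3.01, 2.40 and 5.33 times Itgb1 and Itgb2 was 5.32, 2.77 and 2.74 times Itgb1, so that both were above Itgb1 in each library. Without library 3 the mean of Itgb7 was 27.1 CPM per kb, which puts it under Itgb2 at 36.4.

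The α chains were lower than the β chains they pair with, apart from Itga4 against Itgb1 in 1 library. Itgal stood at 10.7, 11.8 and 6.23 CPM per kb, a mean of 9.59 ± 2.96 (SD, n = 3), which was 0.354, 0.277 and 0.0938 times its partner Itgb2. Itga4 stood at 6.69, 8.57 and 2.79 CPM per kb, a mean of 6.02 ± 2.95 (SD, n = 3). Against Itgb1 this was a ratio of 1.18, 0.557 and 0.115 per kb, and against Itgb7 one of 0.391, 0.232 and 0.0216. Itgal and Itga4 were lowest in library 3, the library in which the β chains were highest. Itgae, the αE of CD103, had 0, 0 and 52 counts, a level of 0.697 CPM per kb in library 3, so its signal came only from the library that also held most of the Sftpc and Lyz2 counts. A count of 0 in C57BL/6J libraries 1 and 2 limits Itgae to a low level at this depth and does not show that it is absent.

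Cd44 was the steadiest of the 9 genes. It stood at 27.4, 38.5 and 28.8 CPM per kb, a mean of 31.6 ± 6.03 (SD, n = 3), a coefficient of variation of 19.1%, which lies at the 11.0th percentile among 9020 genes with a mean of at least 100 counts. The median gene of that set varied by 48.4%. Klf2 varied by 100% and Itgb7 by 97.9%, at the 87.9th and 86.8th percentiles, so both were among the more variable genes of these libraries. The order of means was Cd69, Itgb7, Itgb2, Cd44, Itgb1, Itgal, Klf2, Itga4 and Itgae. The ranges over the 3 libraries were separate between Cd44 and Itgb1 and between Itga4 and Itgae, and every other pair of neighbours in that order overlapped.

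Upstream sequence was taken for Itgb7 and Klf2, because these were the most variable between the C57BL/6J libraries of the 5 genes with such sequence and because KLF factors bind the letters CACCC. RefSeq (GRCm38.p6) gave upstream sequence for 5 of the 9 genes, and the 250 bases before the start are printed 5′ to 3′ on the strand of the gene. Capitals mark CACCC or its reverse complement GGGTG. The Itgb7 window lies at chr15:102231936-102232185 on the minus strand and the Klf2 window at chr8:72318812-72319061 on the plus strand.
Itgb7: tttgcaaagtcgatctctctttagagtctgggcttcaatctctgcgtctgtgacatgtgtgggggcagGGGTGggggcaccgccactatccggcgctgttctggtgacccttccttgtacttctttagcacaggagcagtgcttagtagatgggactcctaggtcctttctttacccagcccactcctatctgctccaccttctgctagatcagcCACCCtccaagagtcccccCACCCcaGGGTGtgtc
Klf2: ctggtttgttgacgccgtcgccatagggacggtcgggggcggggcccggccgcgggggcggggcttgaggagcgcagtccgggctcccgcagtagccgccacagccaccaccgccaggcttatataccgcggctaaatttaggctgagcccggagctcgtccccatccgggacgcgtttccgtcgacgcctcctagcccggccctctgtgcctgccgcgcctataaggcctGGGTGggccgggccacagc
The Itgb7 window held 4 matches and the Klf2 window 1 match, on either strand. Itga4 held 4, Itgb1 held 2 and Cd44 held 0 in windows of the same length. CACCC stands in 52.0% of all 32851 such windows, so a match is common. The letters AGATAA, which the factor GATA3 binds, stand in 9.99% of windows and matched before Cd44 but before none of the other 4 genes.

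The 9 genes were then set against the rest of the integrin family and its partners in the C57BL/6J libraries. Of 26 integrin subunits, 8 had at least 10 counts in all 3 libraries, namely Itgb7, Itgb2, Itgb1, Itgal, Itga4, Itgb3, Itgav and Itga6. Itgb3 and Itgav, the 2 chains of the vitronectin receptor αvβ3, averaged 6.05 ± 2.31 and 4.96 ± 1.80 CPM per kb (SD, n = 3), near the level of Itga4. Itga6, a laminin receptor chain, averaged 1.06 ± 0.161. At 0 counts in all 3 libraries stood 8 subunits, among them Itgam, the αM of myeloid cells, and Itgb5, Itgb6 and Itgb8. A sort on the study's lineage list, which holds αM (CD11b), selects against cells that carry it. Itga1, an α chain of resident T cells, had 0, 0 and 11 counts.

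**Figure D2:**
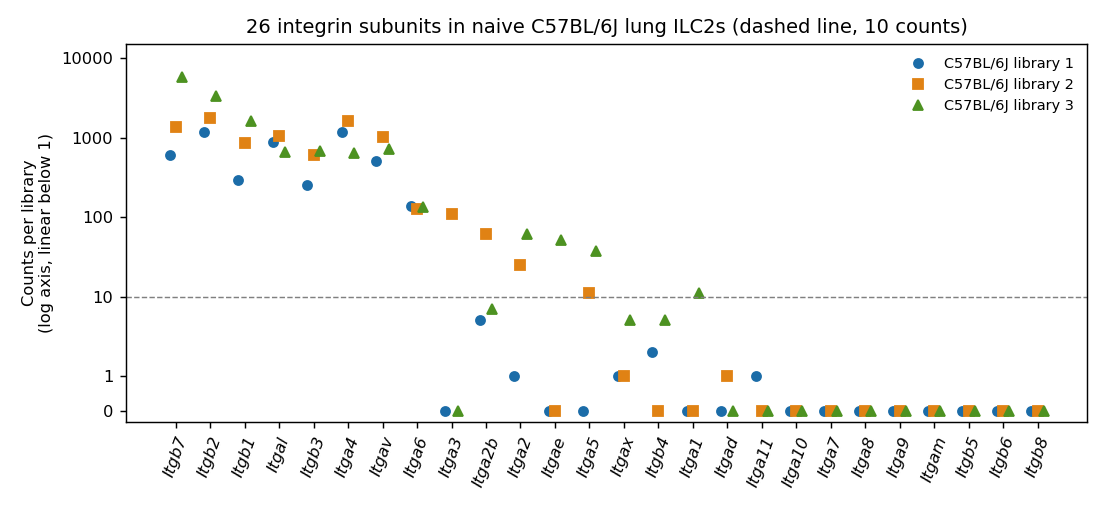
Counts of 26 integrin subunits in naive C57BL/6J lung ILC2s, 1 point per library, ordered by mean level per kb on an axis that is logarithmic above 1 count. The dashed line is 10 counts, which 8 subunits exceed in all 3 libraries, while 8 stand at 0 in all 3.

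All 16 genes that activate integrins or tie them to actin had at least 10 counts in each C57BL/6J library. Rap1b, a small GTPase that activates integrins, averaged 323 ± 53.4 CPM per kb, and Skap1, an adaptor that couples the antigen receptor to LFA-1 in T cells, averaged 115 ± 25.4 (SD, n = 3 each). Fermt3 (kindlin-3) and Ilk, which bind β chain tails or link them to actin, averaged 13.7 ± 12.1 and 37.3 ± 48.4 CPM per kb, each highest in library 3. Of 10 ligand genes, Icam2 was the highest at 73.9 ± 19.6 CPM per kb, and Fn1 and Madcam1 were at 0. Moesin (Msn), which ties CD44 to actin, averaged 43.3 ± 10.3 and radixin (Rdx) 21.0 ± 3.38 CPM per kb. Of 17 genes of a residence program, 13 had at least 10 counts in all 3 libraries. Cxcr6, a chemokine receptor of resident lymphocytes, was the highest of these at 1437 ± 105 CPM per kb, followed by Rgs2 at 796 ± 134 and Cd69. Zfp683, which encodes the residence factor Hobit, was at 0, and Prdm1, which encodes Blimp-1, had 97, 0 and 1 counts. Of 10 genes of an egress program, 5 had at least 10 counts in all 3. Il7r was the highest at 177 ± 8.34 CPM per kb, followed by Klf3 at 8.83 ± 2.17 and Klf2. Il7r encodes CD127, for which the cells were sorted, and is also among the ILC2 markers, so its rank says nothing of egress.

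Before the CC030 counts could be read as levels of these genes, their positions were examined. The study names mm9 for the alignment of CC030 reads and mm10 for the final coordinates. Where both strains are counted at the same places, genes around each of the 9 that are high in C57BL/6J should also be high in CC030, so counts per kb of the CC030 group means were correlated with those of naive C57BL/6J across genes within 4 Mb to each side. This correlation is across neighbouring genes of the same libraries, which are not independent. Spearman's rho at the same positions was -0.269 to 0.126 for naive CC030 around the 9 genes, and a gene was taken to share positions only where this rho was 0.5 or more and within 0.1 of the best rho at any shift up to 3 Mb. None of the 9 met this in naive CC030 or in any of the 4 cultured groups, with windows of 4 or 8 Mb. When C57BL/6J levels were read at a shifted place instead, the correlation in cultured cells was higher, most of all at day 6. Its peak stood out more around some genes than others. This second form (Pearson's r of log2 counts per kb, shifts up to 10 Mb, 8 Mb windows) was chosen after the data had been seen.

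In vehicle at day 6, r without a shift was -0.0373 to 0.148, and the best r was 0.457 to 0.751. Around Itgae it reached 0.751 at a shift of 187 kb, against 0.265 at the next best place. Around Itgal it was 0.747 at -7143 kb, and around Itgb7 it was 0.692 at 169 kb. Itgb2 had 0.645 at 537 kb and Itga4 had 0.552 at 161 kb. Itgb1 and Klf2, which lie on the same chromosome, shared a shift of -2524 kb, at 0.524 and 0.574, against 0.409 and 0.412 at the next best place. Cd69 had 0.502 at 50 kb. Cd44, with 175 genes in its window, had 0.457 at 160 kb, against 0.39 at the next best place. AR420626 at day 6 gave the same shifts within 1 kb for 8 genes and -1619 kb for Cd44. At day 2 the best r was 0.249 to 0.425 in vehicle and 0.248 to 0.482 with AR420626. The next best places gave 0.203 to 0.319 and 0.22 to 0.287. Around Itgae, Itga4, Itgb7, Itgb2, Itgal and Cd69 the day 2 shifts were near those of day 6, for example 187 kb for Itgae in vehicle (0.393). Those around Itgb1, Cd44 and Klf2 were not. In naive CC030 the best r was 0.183 to 0.278, against 0.162 to 0.25 at the next best place. The exons of each gene were also moved by its vehicle shift with the sign reversed, which for Itgae is towards lower positions. After this move the exons of 6 of the 9 genes met no annotated exon. Those of Itgae met 518 bases of Zzef1, those of Itga4 met 163 bases of Gm37004 and those of Itgb2 met 109 bases of Gm3137. This move shows under which identifiers reads of each gene would fall at that shift, and not whose reads are listed under it. Which genes lie at the shifts with their printed sign was not examined. All CC030 values below are therefore counts listed under each gene, and whether they come from its RNA was not tested. This holds for the genes of the lists too, around which no such check was made.

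**Figure D3:**
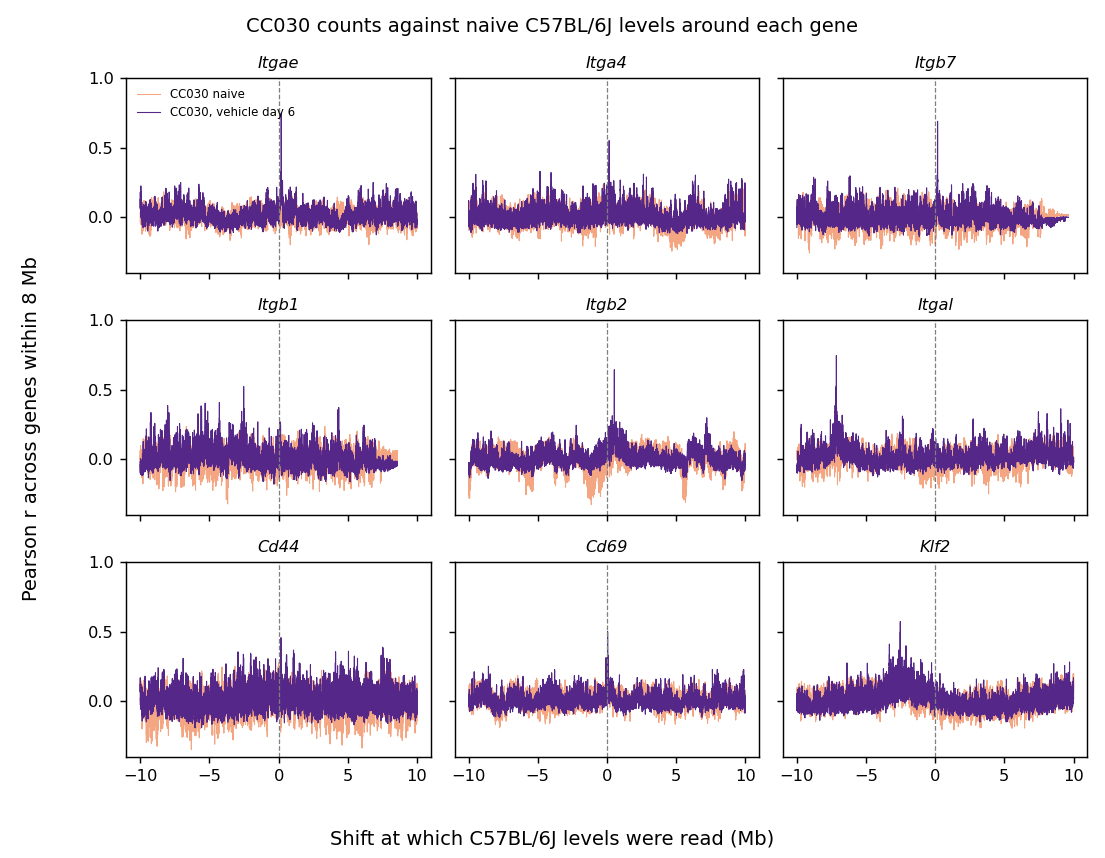
Pearson's r across genes within 8 Mb of each gene, between log2 counts per kb in CC030 and in naive C57BL/6J, against the shift in Mb at which C57BL/6J levels were read. Vehicle at day 6 (dark) is highest away from the dashed line at 0, for example 0.751 at 187 kb for Itgae, while naive CC030 (light) stays at or under 0.278. For Cd44 the best r of 0.457 is near the next best of 0.39.

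Naive CC030 libraries held a count at 43527 to 46111 genes, against 15946 to 16553 in C57BL/6J libraries. Of the 10 ILC2 markers, 8 had at least 10 counts in all naive CC030 libraries, and their summed level was 299.97 to 359 CPM of the deposited totals, against 7903 to 10180 CPM in C57BL/6J. The 3 fibroblast markers summed to 198 to 226 CPM in CC030 and to 0 to 4.66 CPM in C57BL/6J. By counts per kb, 8 of the 9 genes stood at percentiles of 21.5 to 52.5 among CC030 genes with a count, and Itgb7 stood at 92.0. In C57BL/6J, 8 of the 9 stood at 73.1 to 96.5 and Itgae at 31.3.

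The strain comparison asked how naive CC030 ILC2s differ from C57BL/6J ILC2s. Counts listed under 6 of the 9 genes were lower in CC030 by edgeR's quasi-likelihood test, and under none higher (Benjamini-Hochberg adjusted p under 0.05). Over all 35551 genes tested, 12.2% were called lower and 64.1% higher, and the median log2 fold change was 7.03, against -2.22 for the 9 genes. Among 8990 genes with a mean of at least 100 counts in C57BL/6J, which 8 of the 9 genes reach, 46.7% were called lower, with a median of -1.45. That choice favours genes high in C57BL/6J, and it is given as the nearer background.

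Cd69 had 24, 34 and 65 counts in CC030 libraries, against 16661, 11994 and 8159 in C57BL/6J libraries. Scaled over the 6 naive libraries, it averaged 18.7 ± 8.75 CPM in CC030 and 1375 ± 657 CPM in C57BL/6J (SD, n = 3 each), a log2 fold change of -6.20 (SE 0.632, edgeR adjusted p = 0.00046). Cd44 had 43, 63 and 63 counts in CC030, against 2329, 3494 and 3181 in C57BL/6J. Its log2 fold change was -3.63 (SE 0.378, edgeR adjusted p = 0.00046). The groups did not overlap in CPM for either gene.

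Itgb2 had 21, 52 and 27 counts in CC030 and 1161, 1744 and 3299 in C57BL/6J, a log2 fold change of -3.77 (SE 0.514, edgeR adjusted p = 0.00046). Itgb7 had 66, 72 and 62 counts in CC030 and 596, 1374 and 5824 in C57BL/6J, a log2 fold change of -2.99 (SE 0.721, edgeR adjusted p = 0.00537). The 3 CC030 libraries were close to each other for Itgb7, at 27.3 to 33.2 CPM, while C57BL/6J ran from 72.5 to 508 CPM. Itgb1 had 41, 65 and 20 counts in CC030 and 292, 843 and 1611 in C57BL/6J, with -2.22 (SE 0.673, edgeR adjusted p = 0.0166). Its groups lay close, with 29.5 CPM as the highest in CC030 and 35.5 CPM as the lowest in C57BL/6J. Itgal had 64, 66 and 82 counts in CC030 and 885, 1041 and 666 in C57BL/6J, with -1.54 (SE 0.428, edgeR adjusted p = 0.0109). The calls of Itgb1 and Itgal ended when DESeq2's size factors replaced TMM in edgeR, at adjusted p = 0.0543 for Itgb1 and 0.0886 for Itgal. That of Itgb1 also ended without CC030 library 1 (edgeR adjusted p = 0.0517) and without CC030 library 3 (edgeR adjusted p = 0.0594). With library totals in place of TMM the call of Itgb7 ended as well (edgeR adjusted p = 0.0591), and DESeq2 ended that of Itgal (adjusted p = 0.0597). When each library had to hold 10 counts of a gene, 4 of 8 tested were called, and Itgb1 (edgeR adjusted p = 0.0768) and Itgal (edgeR adjusted p = 0.204) were not.

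The other 3 genes did not pass. Itga4 had 119, 101 and 198 counts in CC030, against 1175, 1607 and 635 in C57BL/6J, and the groups overlapped in CPM (log2 fold change -0.99, SE 0.524, edgeR adjusted p = 0.119). Exons of Itga4 share 1124 bases with Cerkl on the opposite strand, which had 58, 41 and 109 counts in CC030 and 493, 392 and 191 in C57BL/6J, and without strand these reads cannot be told apart. With library totals in place of TMM, the log2 fold change of Itga4 turned to 0.31. Klf2 had 10, 16 and 11 counts in CC030 and 123, 22 and 433 in C57BL/6J, with -1.69 (SE 0.956, edgeR adjusted p = 0.142). Without C57BL/6J library 2, the library with 22 counts, Klf2 was called lower at -2.26 (edgeR adjusted p = 0.00945). Itgae was the only one of the 9 with a positive value, with 33, 49 and 45 counts in CC030, against 0, 0 and 52 in C57BL/6J (log2 fold change 3.65, SE 1.74, edgeR adjusted p = 0.0904). DESeq2 called Itgae higher in CC030 (adjusted p = 0.0217), as did edgeR with DESeq2's size factors (adjusted p = 0.0464). Without C57BL/6J library 3, which held all its C57BL/6J counts, Itgae was called higher in CC030 (edgeR adjusted p = 0.000364). That fit sets 33, 49 and 45 counts against 0 and 0, so leaving out the library fixed its direction and the call adds no support. With library 3 left out, Itga4 was called lower at -1.77 (edgeR adjusted p = 0.00383), and 8 of the 9 genes passed, Itgae among them.

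**Figure D4:**
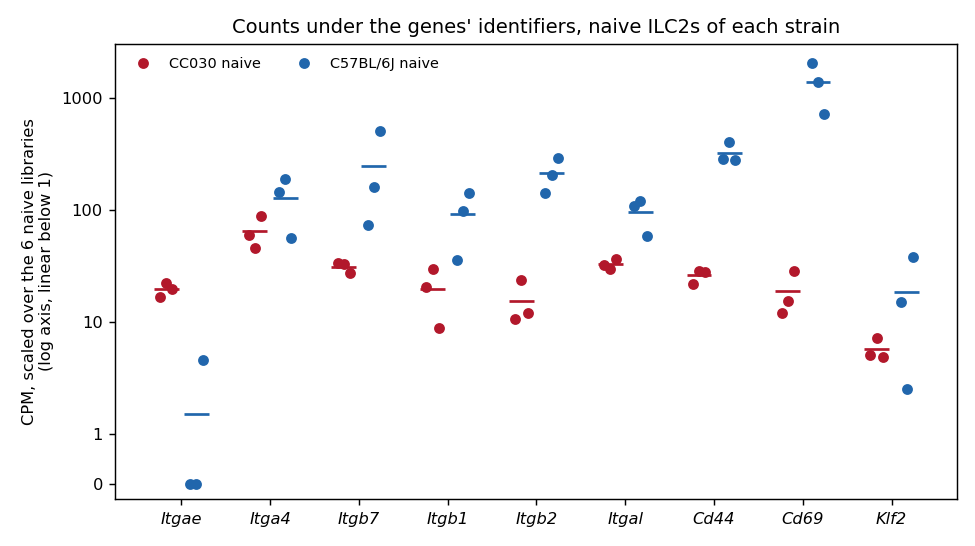
Counts listed under the 9 genes in naive ILC2s, as CPM scaled over the 6 naive libraries, on an axis that is logarithmic above 1. Points are libraries and bars are means of 3, with CC030 left and C57BL/6J right, and Cd69 is the furthest apart at 18.7 against 1375 CPM.

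The scaling moved every strain value. DESeq2's size factors shifted the median log2 fold change of all genes by 0.54 and library totals by 1.07. Cd69, Cd44 and Itgb2 stayed called lower under each alternative that was run. In the lists around them, 17 of 26 integrin subunits were called higher and 6 lower, near the 64.1% called higher over all genes. Of integrin activation, 9 of 16 genes were called lower and 1 higher, against the 46.7% called lower among genes with a mean of at least 100 counts in C57BL/6J. The 8 subunits at 0 in C57BL/6J had 17 to 156 counts in each CC030 library. Rap1b, Skap1 and Msn were among those called lower, with log2 fold changes of -7.05 (SE 0.472), -5.05 (SE 0.379) and -4.28 (SE 0.382). Of the residence program 8 of 17 genes were called lower and 2 higher, and of the egress program 2 of 10 were lower and 1 was higher, namely Sphk1. The 46.7% covers genes with a mean of at least 100 counts in C57BL/6J. The lists also hold genes under that mean, such as Zfp683 at 0, which could not be called lower. Their shares and the 46.7% are therefore not over like genes, and whether any list differs from other genes was not tested.

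In cultured CC030 ILC2s the 9 genes had few counts, between 0 and 87 per library, and none was called in any of 5 comparisons by edgeR's quasi-likelihood test with mouse as a block. Each library's CPM was scaled over the 20 cultured libraries. Of the 10 ILC2 markers, 3 had at least 10 counts in every library of vehicle at day 6 and of AR420626 at day 6. Vehicle of mouse 5 at day 2 had the most counts of all cultured libraries (5320028) and AR420626 of mouse 4 at day 2 the fewest (227445). Because the median over the 20 libraries was 8 to 25 counts for each gene, under the 50 set as a minimum, no genes of like pattern are named.

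AR420626 against vehicle at day 6 addressed the effect of FFAR3 agonism after a longer culture. Of 9421 genes tested, 11.4% were called, 311 higher and 767 lower, and of the 9 genes Itga4, Itgb2, Itgal and Cd44 had enough counts to be tested. Cd44 had 12, 22, 16, 15 and 9 counts with AR420626 in mice 1 to 5, against 23, 18, 23, 59 and 26 with vehicle. It was lower in CPM with AR420626 in 5 of 5 mice, but with a log2 fold change of -0.45 (SE 0.417, edgeR adjusted p = 0.504). Its highest vehicle library, of mouse 4, was at 57.9 CPM, against 15.9 to 27.0 CPM in the 4 other vehicle libraries.

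Itga4 had 26, 49, 18, 14 and 9 counts with AR420626, against 9, 28, 18, 6 and 13 with vehicle, and was higher in CPM in 4 of 5 mice (log2 fold change 1.02, SE 0.476, edgeR adjusted p = 0.171). Its unadjusted p was 0.0413, the only one of the 4 under 0.05, and DESeq2 called none of the 9. Itgb2 had 5, 19, 12, 9 and 18 counts with AR420626, against 25, 12, 14, 34 and 15 with vehicle (log2 fold change -0.19, SE 0.507). Itgal had 12, 34, 14, 7 and 4 counts with AR420626, against 15, 14, 10, 8 and 21 with vehicle (log2 fold change 0.31, SE 0.56). The groups overlapped for all 4 genes. The other 5 had 0 to 24 counts a library and were not tested.

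In the lists, counts under Skap1 fell with AR420626 at day 6, with a log2 fold change of -1.79 (SE 0.355, edgeR adjusted p = 0.000825). Rap1a, the other form of the GTPase, fell by 1.01 on the log2 scale and Ilk by 0.81 (adjusted p = 0.00795 and 0.0331 in edgeR), while Vcl (vinculin) rose by 0.91 (edgeR adjusted p = 0.0184). That makes 3 of 11 tested activation genes lower and 1 higher, with a list median of -0.63, against 0.10 over all genes. Of all 9421 genes, 767 were called lower and 311 higher. Of 21 tested integrin subunits 1 was called, Itgb6, which fell by 1.30 (edgeR adjusted p = 0.00414). Itgb6 had 47, 57, 72, 46 and 38 counts with AR420626 and 198, 156, 60, 574 and 132 with vehicle, although it had 0 counts in all naive C57BL/6J libraries. Sphk1, a kinase that makes the egress signal S1P, fell by 1.09 (edgeR adjusted p = 0.00228), and of the 4 tested genes of the residence program none was called.

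At day 2 no difference beyond the spread between mice was detected for any of the 9 genes. All 9 were tested, with log2 fold changes of -0.84 to 0.40, no unadjusted p under 0.05, and edgeR adjusted p = 1 for each. Over 20865 genes 0% were called by edgeR, 403 had an unadjusted p under 0.05, and DESeq2 called 31, none of them among the 9. Itgal was lower in CPM with AR420626 in 5 of 5 mice, with 21.1, 21.1, 24.7, 22.9 and 13.8 CPM, against 23.5, 22.4, 30.0, 26.3 and 20.1 CPM with vehicle. Its log2 fold change of -0.32 was smaller than its SE of 0.418. Under alternative settings the sign of a log2 fold change turned in 25 of 100 repeats over the 9 genes.

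Whether the response to AR420626 differed at day 6 from that at day 2 was tested for all 9 genes, with values of -0.92 to 1.84 on the log2 scale. None passed, with a smallest edgeR adjusted p of 0.994, no unadjusted p under 0.05 and none called by DESeq2. Over 23141 genes 0.0519% were called, which is 12 genes, and 2 without mouse as a block.

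Day 6 against day 2 asked what time in culture does, in vehicle and with AR420626. Other measures moved with the day. In vehicle, 28113 to 33117 genes had a count at day 6, against 32347 to 44880 at day 2, and 5.91 to 8.08% of uniquely placed reads lay in genes at day 6, against 3.44 to 12.3% at day 2. The 3 eosinophil markers summed to 338 to 588 CPM of the deposited totals in vehicle at day 6, against 38.2 to 237 CPM at day 2, and 1 of the 3 was at 0 throughout both groups. The 10 ILC2 markers summed to 82.7 to 143 CPM at day 6 in vehicle, against 116 to 399 CPM at day 2. The part of these shifts in the values over time was not tested. In vehicle, Itgb7 had 12, 2, 4, 2 and 4 counts at day 6, against 32, 51, 24, 25 and 16 at day 2. It was lower in CPM at day 6 in 5 of 5 mice, with 4.70 ± 3.80 CPM at day 6 and 14.8 ± 3.20 CPM at day 2 (SD, n = 5 each). The log2 fold change was -1.83 (SE 0.629), and the edgeR adjusted p of 0.052 did not pass. DESeq2's size factors in edgeR gave an adjusted p of 0.0411. With AR420626, Itgb7 had 7, 14, 5, 0 and 4 counts at day 6, against 25, 73, 29, 9 and 13 at day 2, again lower in 5 of 5 mice (log2 fold change -1.80, SE 0.732, edgeR adjusted p = 0.128). DESeq2 called it at adjusted p = 0.0437.

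Cd44 had the opposite sign in vehicle. It had 23, 18, 23, 59 and 26 counts at day 6, against 35, 31, 35, 20 and 12 at day 2, or 29.6 ± 16.4 CPM at day 6 and 13.3 ± 2.90 CPM at day 2 (SD, n = 5 each). CPM was higher at day 6 in 5 of 5 mice, with a log2 fold change of 1.00 (SE 0.471, edgeR adjusted p = 0.149). With library totals in place of TMM the value was -0.09, and with genes of at least 10 counts in every library it was -0.15. Klf2 had 4, 0, 1, 7 and 3 counts at day 6 in vehicle, against 15, 25, 10, 18 and 34 at day 2, lower in CPM in 5 of 5 mice (log2 fold change -2.06, SE 0.814, edgeR adjusted p = 0.0879). The day 2 library of mouse 5, at 32.5 CPM, lay far above the other 4, at 4.47 to 9.49 CPM.

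**Figure D5:**
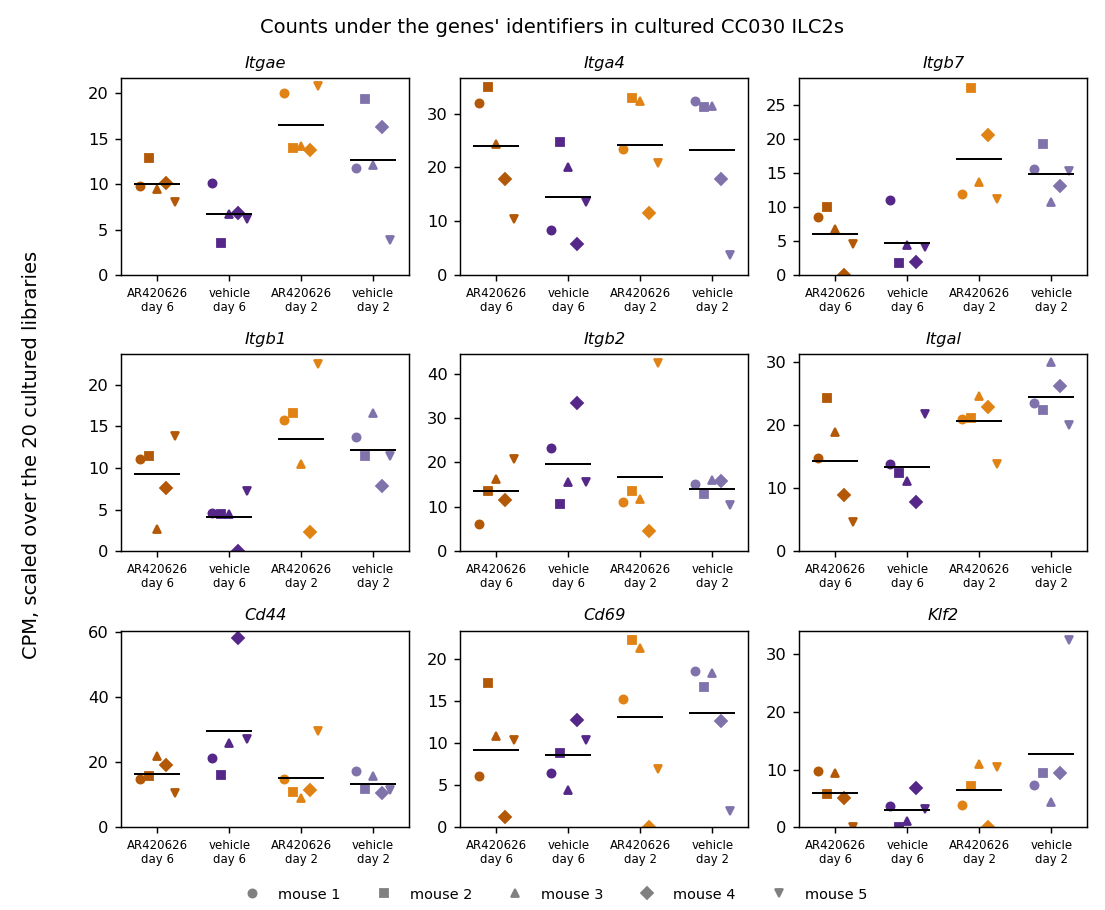
Counts listed under the 9 genes in cultured CC030 ILC2s, as CPM scaled over the 20 cultured libraries on linear axes from 0. Markers are the 5 mice and bars are means, with AR420626 left of vehicle and day 6 left of day 2, and Itgb7 in vehicle averages 4.70 CPM at day 6 against 14.8 CPM at day 2.

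Itgb1 was lower at day 6 in vehicle in 5 of 5 mice, with 4.16 ± 2.62 CPM at day 6 and 12.2 ± 3.20 CPM at day 2 (SD, n = 5 each), but had too few counts to be tested. In vehicle, 7 of the 9 genes were tested and 3 had an unadjusted p under 0.05, namely Itgb7, Cd44 and Klf2, while 17.3% of all 15819 genes were called, 2152 higher and 590 lower. Itgal fell short at a log2 fold change of -0.93 (SE 0.471, edgeR adjusted p = 0.18). Itga4 had -0.65 (SE 0.542), Cd69 had -0.58 (SE 0.625) and Itgb2 had 0.38 (SE 0.463). With AR420626, 7 of the 9 were tested, 11.2% of 14731 genes were called, 1479 higher and 168 lower, and only Itgb7 of the 9 had an unadjusted p under 0.05. Itgae was lower in CPM at day 6 with AR420626 in 5 of 5 mice, with 10.1 ± 1.74 CPM at day 6 and 16.6 ± 3.54 CPM at day 2 (SD, n = 5 each), at -0.95 (SE 0.556, edgeR adjusted p = 0.302). The values of the 4 remaining genes with AR420626 were -0.90 (SE 0.488) for Itgal, -0.77 (SE 0.654) for Itgb1, -0.36 (SE 0.561) for Itgb2 and -0.31 (SE 0.421) for Itga4, and Cd44 had -0.05 (SE 0.561). Library totals in place of TMM turned the split of calls with AR420626 to 750 higher and 5402 lower, so the direction of calls over time depended on the scaling.

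Of the lists, counts under 4 of 14 activation genes rose in vehicle between the days, Tln1, Fermt3, Rap1a and Ilk, by 2.93, 2.93, 4.85 and 3.28 on the log2 scale (edgeR adjusted p = 0.0495, 0.0091, 0.0072 and 0.0278). Over all genes tested in vehicle, 2152 of 15819 were called higher. Tln1 (talin) and kindlin-3 are the adaptors that switch integrins on by binding the β chain tail. With AR420626, Ilk alone of 15 passed, at 1.69 (edgeR adjusted p = 0.035), while 1479 of all 14731 genes were called higher. Tgfb1 encodes the cytokine that induces CD103 in T cells. Counts under it rose at day 6 in both, by 4.14 with AR420626 and by 4.43 in vehicle (edgeR adjusted p = 0.0302 and 0.0323). Those under Sphk1 rose as well, by 2.74 with AR420626 and by 3.20 in vehicle (edgeR adjusted p = 0.0129 and 0.0317). Tgfb1 had 1026, 1032, 883, 1054 and 1501 counts in vehicle at day 6, against 87, 48, 62, 43 and 3680 at day 2. Mouse 5 had fewer counts at day 6 than at day 2 in vehicle not only of Tgfb1 but also of Ilk (185 against 282), Tln1 (583 against 658) and Sphk1 (168 against 295), while the other 4 mice had more. Without mouse 5, 5376 genes were called in vehicle and none of the 9.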

How the data were processed

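RNA of 26 lung ILC2 libraries was prepared with SMART-Seq v4, which does not mark strand. The authors trimmed reads with fastp, aligned them with STAR (C57BL/6J to mm10, CC030 to an mm9 pseudogenome followed by lapels to mm10) and deposited whole-number HTSeq counts per Ensembl gene. Which annotation they counted was not stated in the methods or labels. The 5 HTSeq summary rows were left out.

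Names, positions and exon lengths came from GENCODE vM21, matched for 55141 of 55401 identifiers. Libraries were scaled by TMM within the 3 C57BL/6J, the 6 naive or the 20 cultured libraries, so CPM differ between these uses. Each comparison was fitted on all genes passing filterByExpr (minimum count 10, minimum total 15) with edgeR 4.0.16 (glmQLFit, robust), and p-values were adjusted by Benjamini-Hochberg with a threshold of 0.05. Mouse was a block in cultured comparisons, since the labels give the same mouse for both libraries of a pair. Deviations of paired libraries correlated at -0.333 to 0.335. Alternatives were DESeq2 1.42.0, its size factors in edgeR, no filter, a minimum of 10 counts in each library, fits with and without the block, and leaving out each library in turn. Protein-coding genes alone, library totals without TMM and the Pearson form of the position check with its 10 Mb reach were added after seeing the data. Scripts were tested on simulated data. Other software was R 4.3.3 and Python 3.11.15.

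The 9 genes are covered in every comparison, by name or within a range or a count. Of each list, up to 5 genes with the highest C57BL/6J level and up to 4 with the smallest p are named. S1pr1, Ccr7, Prdm1, Zfp683, Itga1 and genes given for their counts of 0 were named after their values were seen. The genes and lists were chosen with earlier results of these data known. Depth ran from 227445 to 15234305 counts a library, and precision at low counts is limited accordingly.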

Additional observations from a re-analysis of the deposited data

Results flagged for a closer look

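In 36 sets of 5 cultured libraries (1 gene in 1 group), the highest or lowest library was compared with its nearest neighbour, and 5 sets held a library further off than Dixon's value of 0.71, where chance gives about 1 in 20. With AR420626 at day 2, mouse 5 was the highest for both Itgb2 (42.4 CPM, 49 counts) and Cd44 (29.4 CPM, 34 counts). In vehicle at day 6, Cd44 was highest in mouse 4 (57.9 CPM, 59 counts) and Itgb7 in mouse 1 (11.1 CPM, 12 counts). In vehicle at day 2, Klf2 was highest in mouse 5 (32.5 CPM, 34 counts), the library with the most counts of all cultured ones. The cause of these values was not tested.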

How the results depend on the processing

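Between strains, 27122 genes were called, against 3573 with 10 counts in every library and 13454 among protein-coding genes alone. Of the 9 genes 6 were called, against 4 (of 8 tested) with 10 counts in every library and 3 with library totals, where Itga4 turned to 0.31. The strains' replicate numbers do not pair mice (correlations of -0.0125 to 0.00423, with 1 of 3 libraries best with its own number), and the replicate block gave 7 of the 9. For AR420626 at day 2, DESeq2 called 31 genes and edgeR without a filter 15, against 0. In vehicle over time DESeq2 called 4154 genes, and size factors in edgeR called 1 of the 9, Itgb7. With AR420626 over time DESeq2 called 3637 genes and 1 of the 9, and library totals called 6152 genes and 5 of the 9. For the difference of effects, DESeq2 called 260 genes, no filter 20, 10 counts in every library 6, protein-coding genes alone 6 and no replicate block 2. In vehicle over time, Itgb2 turned to -0.81 with 10 counts in every library and to -0.75 with library totals, and Cd44 to -0.15 and -0.090. With AR420626 over time, Cd44 turned to 0.085 with DESeq2, 0.044 with its size factors and 0.091 without a filter. With the longest transcript as length, Cd44 in C57BL/6J was at 38.08 CPM per kb. The split of calls into higher and lower for AR420626 at day 6 was 311 and 767, against 192 and 1037 with DESeq2 and 468 and 543 with library totals. In vehicle over time it was 2152 and 590, against 1275 and 745 with library totals. With AR420626 over time it was 1479 and 168, against 2796 and 841 with DESeq2 and 1229 and 351 with no replicate block. The cause of these changes was not tested.

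Leaving out 1 library or mouse gave 23067 to 24411 genes and 5 to 8 of the 9 between strains, 0 genes for AR420626 at day 2 and 604 (without mouse 1) to 1221 at day 6. It gave 994 (without mouse 4) to 5376 (without mouse 5) in vehicle over time, with 1319, 1512 and 1346 without mice 1, 2 and 3. With AR420626 over time it gave 253 (without mouse 3) to 2772 (without mouse 5), and 346, 380 and 734 without mice 1, 2 and 4. The difference of effects ran from 0 (without mouse 1) to 33 (without mouse 5), with 4, 2 and 1 without mice 2, 3 and 4. Itgb2 for AR420626 at day 6 ran from -0.44 to 0.16. With AR420626 over time, Itga4 ran from -0.43 to 0.050, Itgb2 from -0.53 to 0.053 and Cd44 from -0.31 to 0.51. The low counts under the 9 genes in cultured libraries, with medians of 8 to 25, limit what these comparisons can detect.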
